A study of Rattus norvegicus with 8 samples.

Results

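The comparison of selenium water with tap water in the intestinal epithelium rests on 4 of the 8 rat arrays of the series, 2 from the SeW group and 2 from the TW group, chosen by their titles, and covers all 9258 genes whose brightest probe set with a single gene symbol passed the filter on low signal. All rats were Wistar rats of 4 months by the labels and female by the study's methods. The SeW group drank selenium water for 3 days; the study's methods describe it as sodium selenite in distilled water, so the 2 groups differed in the water that carried the selenium as well as in the selenium. The TW group drank tap water for 3 days. Of the other groups, which served for the shared estimate of spread and as further references, DSW1200 drank deep-sea water for 3 days and WR had its water restricted for 12 h. The epithelial cells were shaken loose from short proximal segments with EDTA, so the RNA is that of a mixed mucosal cell population, in which fewer cells of a type and less RNA per cell cannot be told apart. The labels do not say whether the 2 arrays of a group came from separate animals, and p-values therefore measure the spread between these arrays only.

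Selenium enters the body from selenite or from organic forms and is built into proteins as selenocysteine, an amino acid placed at UGA codons by its own tRNA and a set of dedicated factors. The resulting selenoproteins include the glutathione peroxidases, which reduce peroxides with glutathione, the thioredoxin reductases, which keep thioredoxin reduced, and selenoprotein P, which carries selenium in plasma. The proximal small intestine absorbs most nutrients. Its epithelium is renewed from dividing crypt cells, which mature into enterocytes with a brush border of digestive enzymes and transporters, while Paneth cells at the crypt base secrete defensins.

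The values are array signals on a linear scale, brought to 1 common distribution over the 8 arrays (quantile normalization), and changes are differences of group means on the log2 scale, SeW minus TW. A gene was called when limma gave an adjusted p under 0.05 (Benjamini-Hochberg over all tested genes). Before normalization the SeW arrays were the brightest, with median deposited signals of 11.1 and 10.6, against 6.1 to 9 on the DSW1200 and WR arrays and 8.40 and 4.30 on the TW arrays. The ratio of the 3' to the 5' beta-actin probe sets, which is high where RNA is degraded or copied short, was 13.6 and 10.9 on the SeW arrays, 21.1 to 32.8 on the DSW1200 and WR arrays, and 24.1 and 20.6 on the TW arrays. Both measures thus set the SeW arrays apart from all others, and neither can be told apart from the water in this design. TW replicate 2 had the lowest mean correlation with the arrays of other groups (0.907). Enterocyte markers were present throughout, with a summed signal of 46485 to 48918 in SeW and 41111 to 44093 in TW, while no marker of enteric neurons and glia passed the filter.

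In SeW, 74 genes rose (0.799% of those tested) and 103 genes fell (1.11%) against TW. These shares are the reference for the counts of called members in the gene lists below. The 2 SeW arrays lay outside the range of the 2 TW arrays for each of these 177 genes. They were picked for a low p in this same comparison, and the same held for 4560 of the 9081 genes not called. The rises ran from 0.65 to 3.11 on the log2 scale with a median of 1.24, and 52 were at least 2-fold. The falls ran from -0.69 to -2.53 with a median of -1.06, and 63 were at least 2-fold. Of the 9258 tested genes, 1810 had an unadjusted p under 0.05, which is the reference for such counts in the lists. The median change of all 9258 genes was -0.04, with a median SE of 0.26 for a single gene. The count rests on both SeW arrays: without SeW replicate 1 or without SeW replicate 2, 0 genes were called higher and 2 lower, and with the beta-actin ratio as a covariate 0 were called in either direction while 803 had an unadjusted p under 0.05.

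**Figure D1:**
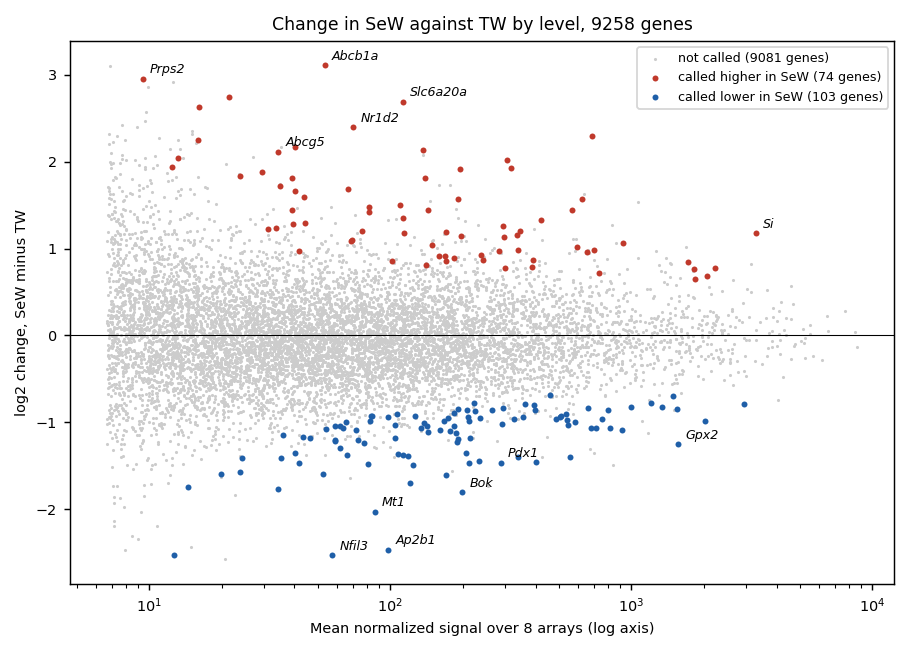
Mean normalized signal over the 8 arrays (horizontal, log axis) and log2 change in SeW against TW (vertical) for each tested gene, with the 74 genes called higher in red and the 103 called lower in blue. The called genes have mean signals from 9.41 to 3278, with Abcb1a (3.11) at the top and Nfil3 (-2.53) and Ap2b1 (-2.47) near the bottom, while the place of Prps2 at the upper left rests on TW signals of 1.56 and 2.54, under the filter.

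The split between rises and falls depended on how the unequal brightness of the arrays was handled. It was 74 higher against 103 lower after quantile normalization, 51 against 14 with arrays centred on their medians, and 4390 against 5 with the signals as deposited, on which the median change of all tested genes was 0.92. All 74 rises were also above TW on every deposited array, but so were 7280 of the 9081 genes not called. Of the 103 falls, 33 were below TW on every deposited array, 68 overlapped and 2 were above, so for most falls the lower level is relative to the other genes of the same array.

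The largest rise was that of *Abcb1a*, the P-glycoprotein pump that returns drugs and other foreign compounds to the gut lumen. Its signal was 235 and 250.4 on the SeW arrays, 34.8 and 18.3 on the DSW1200 arrays, 36.8 and 60.0 on the WR arrays, and 33.2 and 23.9 on the TW arrays. The SeW arrays stood above all 6 others, and the change against TW was 3.11 (SE 0.34, adjusted p 0.00974). Its 2 probe sets moved the same way, the dimmer by 2.63. *Slc6a20a*, a sodium-dependent carrier of proline and related imino acids at the brush border, had 327 and 424 in SeW and 59.6 and 55.9 in TW, a change of 2.69 (adjusted p 0.00974), and its second probe set changed by 2.11. *Abcg5*, a subunit of the sterol pump that sends absorbed sterols back to the lumen, had 73.3 and 130.1 in SeW and 26.8 and 19.0 in TW, a change of 2.12 (adjusted p 0.0397). All 3 code for membrane transport proteins.

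Other large rises belonged to regulators and to proteins with varied roles. *Klf15*, a transcription factor of amino acid and glucose metabolism, had 102 and 158 in SeW, 19.4 and 18 in DSW1200, 32.1 and 48.5 in WR, and 25.7 and 31.1 in TW (change 2.17, adjusted p 0.0123). The brightest of its 3 probe sets carried this rise. The other 2 were dim, under the filter, and overlapped, at -0.05 and -1.41. *Sv2b*, a vesicle glycoprotein, had 2428 and 1322 in SeW and 455 and 295 in TW (2.29, adjusted p 0.0166), and its 2 dim further probe sets were also higher. *Prss35*, a protein of the serine protease family, had 68.3 and 87.0 in SeW and 13.4 and 11.5 in TW (2.63, adjusted p 0.0324). The unnamed long noncoding RNA *LOC102554372* had 54.2 and 96.0 in SeW and 9.81 and 11.9 in TW (2.74, adjusted p 0.0123). For each of these 4 genes the SeW arrays were also above every DSW1200 and WR array.

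*Prps2*, which makes the ribose precursor of nucleotides, was different in this respect. It had 20.9 and 11.4 in SeW, 15.9 and 11.2 in DSW1200, 17.4 and 20.8 in WR, and 1.56 and 2.54 in TW. The TW signals were under the filter of 6.69 and close to the floor of 1, so the gene passed the filter through the other groups and the size of its change is not settled. The fitted change of 2.95 against TW (adjusted p 0.0323) became 0.49 (adjusted p 0.0661) with an offset of 32 added before log2, and it stood beside 0.21 against DSW1200 (adjusted p 0.866) and -0.30 against WR (adjusted p 0.826), so the TW arrays alone were low. Of its 3 probe sets, 2 were higher in SeW than in TW, the dimmer of these under the filter, and the dimmest of all overlapped.

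**Figure D2:**
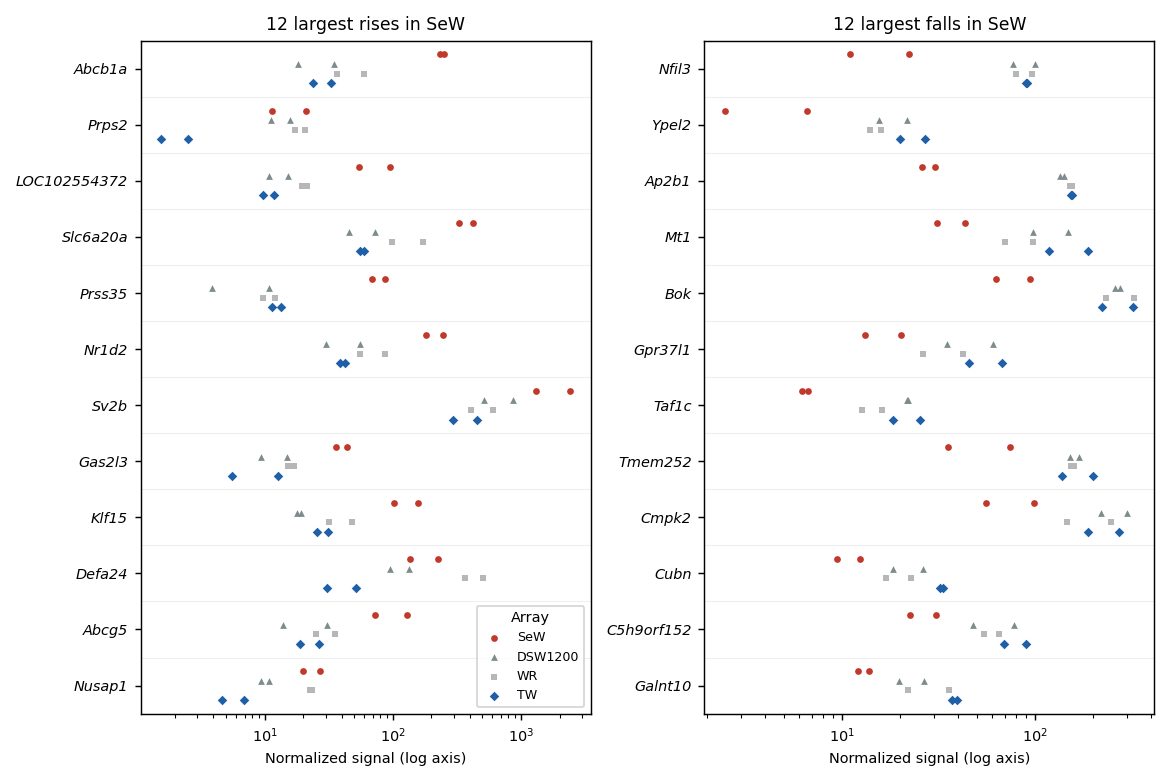
Normalized signal (log axis) of the 12 largest rises (left) and the 12 largest falls (right) in SeW against TW, 1 point per array, with SeW in the top row of each gene and TW in the bottom row. For Abcb1a, Slc6a20a, Nr1d2, Nfil3 and Ap2b1 the SeW arrays lie apart from the other 6, while for Prps2 and Defa24 the TW arrays are the ones apart.

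Among the falls, *Ap2b1*, the beta subunit of the AP-2 adaptor that gathers cargo into clathrin-coated pits, was the gene with the lowest adjusted p. It had 25.9 and 30.4 in SeW, 135 and 141 in DSW1200, 156 and 152 in WR, and 155 and 155 in TW. The change was -2.47 (SE 0.18, adjusted p 0.000793), and it stood at -2.30 against DSW1200 (adjusted p 0.00153) and -2.46 against WR (adjusted p 0.000824). Among the 20 other settings tried, this call was kept in 18, more than for any other called gene named here. It comes from 1 of 2 probe sets, the other being dim with overlapping arrays.

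*Nfil3*, a leucine zipper repressor tied to the circadian clock, had 22.2 and 11 in SeW, 77.0 and 100.1 in DSW1200, 96.3 and 79.9 in WR, and 90.2 and 90.7 in TW, a change of -2.53 (SE 0.31, adjusted p 0.0123). *Ypel2* had 6.55 and 2.46 in SeW and 20 and 26.9 in TW, a change of -2.53 (adjusted p 0.0397), with SeW signals under the filter and a change of -0.60 with the offset of 32. *Bok*, a pro-apoptotic member of the Bcl-2 family, had 94.7 and 62.7 in SeW and 223 and 325 in TW, a change of -1.80 (adjusted p 0.0163), and its second probe set was lower by -0.67. The SeW arrays of these 3 genes were below all 6 others.

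The remaining members of the 12 largest falls changed by -1.57 to -2.03. *Cubn*, cubilin, a large endocytic receptor, had 9.41 and 12.4 in SeW and 33.3 and 32.1 in TW (-1.60, adjusted p 0.0430). *Galnt10*, one of the enzymes that begin mucin-type glycosylation, had 13.8 and 12.1 in SeW and 37.0 and 39.6 in TW (-1.57, adjusted p 0.0401), with overlap on a dim second probe set. The calls of *Cubn* and *Galnt10* were each kept in 4 of 19 other settings. *Taf1c*, part of the factor that recruits RNA polymerase I, had 6.21 and 6.69 in SeW and 18.4 and 25.3 in TW (-1.74, adjusted p 0.0435), a call kept in only 2 of 19 other settings, with SeW signals at the filter and a change of -0.48 with the offset of 32. *Cmpk2*, a mitochondrial nucleotide kinase, changed by -1.61 (adjusted p 0.0454) on 1 of 2 probe sets, the other lying at 0.03. *Gpr37l1*, an orphan receptor, *Tmem252* and *C5h9orf152* changed by -1.77, -1.69 and -1.60. On the deposited signals, the arrays of *Gpr37l1*, *Tmem252* and *Cmpk2* overlapped. The call of *Cmpk2* was kept in 4 of 20 other settings and that of *Gpr37l1* in 5 of 20.

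Selenoprotein genes were examined next, because their products take up the element given in the water. Of 24 listed genes, 22 are on the array and 18 passed the filter. Of these 18, 0 rose and 1 fell, against 0.799% and 1.11% of all tested genes. Their median change was -0.15, with 6 above and 12 below 0, against a median of -0.04 for all genes, and it became positive (0.78) with the signals as deposited. It lay at -0.03 without TW replicate 1, -0.06 without TW replicate 2, -0.01 without SeW replicate 2 and 0.05 with the beta-actin covariate. The gene that fell was *Gpx2*, the glutathione peroxidase typical of the gut lining, which had 896 and 872 in SeW, 2102 and 1768 in DSW1200, 1737 and 1620.1 in WR, and 1755 and 2519.6 in TW. Its change was -1.25 (SE 0.18, adjusted p 0.0163), with -1.12 against DSW1200 (adjusted p 0.0198) and -0.92 against WR (adjusted p 0.0479). Both SeW arrays were below all 6 others, on the deposited signals below both TW arrays as well.

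*Gpx4*, which reduces lipid hydroperoxides in membranes, had 971 and 987 in SeW and 1357 and 1834 in TW, a difference of -0.69 (SE 0.18) that missed the threshold (adjusted p 0.0786) and was positive (0.18) as deposited. A dim second probe set went the other way. *Gpx1*, the cytosolic glutathione peroxidase, had 254 and 275 in SeW and 362 and 256 in TW, and *Gpx3*, the secreted form, had 33.8 and 26.9 in SeW and 31.4 and 31.0 in TW. The 2 groups overlapped for both genes. *Txnrd1*, the cytosolic thioredoxin reductase, had 483 and 587 in SeW and 549.6 and 679 in TW, a difference of -0.20 (SE 0.19, adjusted p 0.623) with overlapping arrays, while its dimmer second probe set was lower without overlap (-0.60). *Txnrd2*, the mitochondrial enzyme, had 26.5 and 24.5 in SeW and 32.4 and 29.6 in TW (-0.28, adjusted p 0.665).

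The selenoproteins with the highest values relative to TW were *Selenop* and *Selenos*. *Selenop*, selenoprotein P, had 4163 and 4005 in SeW and 3907 and 2078 in TW, a difference of 0.52 (adjusted p 0.293), with TW replicate 2 the lowest of the 8 arrays. The arrays overlapped on its dim second probe set. *Selenos*, a membrane selenoprotein of the endoplasmic reticulum, had 449 and 506 in SeW and 339 and 334 in TW (0.50, adjusted p 0.148). *Msrb1*, a methionine sulfoxide reductase, had 95.9 and 97.2 in SeW and 126 and 126 in TW (-0.39, adjusted p 0.251). None of the 3 passed the threshold, and the 9 further tested selenoprotein genes lay between -0.23 and 0.27. Of 14 tested genes for selenium uptake and the selenocysteine machinery, limma called 0, and the median was -0.13. Of the 14, 4 had an unadjusted p under 0.05, against 1810 of all 9258 tested genes.

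**Figure D3:**
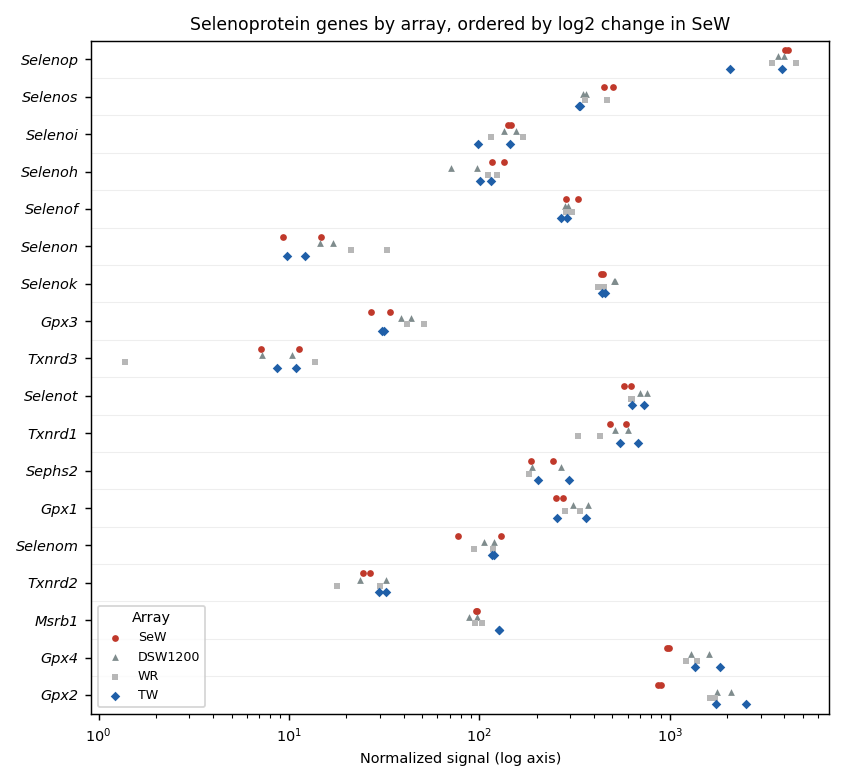
Normalized signal (log axis) of the 18 tested selenoprotein genes on each array, ordered from the highest to the lowest log2 change in SeW against TW, with SeW in the top row of each gene and TW in the bottom row. Only Gpx2, at the bottom, passed adjusted p 0.05, with 896 and 872 in SeW against 1755 and 2519.6 in TW.

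The lists of wider antioxidant systems, none of which holds the called *Gpx2* described above, showed no called gene. By limma, 0 of 26 thioredoxin and glutathione genes, 0 of 15 genes for the removal of peroxide and superoxide, and 0 of 23 targets of the stress-responsive factor Nrf2 passed adjusted p 0.05, with medians of -0.02, -0.06 and -0.02. At an unadjusted p under 0.05 the counts were 5, 2 and 6, against 1810 of all 9258 tested genes. *Sod1*, the cytosolic superoxide dismutase, had 964 and 844 in SeW and 1226 and 1411 in TW (-0.54, adjusted p 0.152). *Gsr*, glutathione reductase, lay at 0.09 (adjusted p 0.922), *Cat*, catalase, at -0.07 (adjusted p 0.898) and *Txnip*, which binds thioredoxin, at 0.34 (adjusted p 0.430). The SeW and TW arrays overlapped for the last 3. With a median SE of 0.26, differences of the size of the last 3 were not detectable here.

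*Mt1*, a metallothionein that binds zinc and copper through cysteine clusters, was among the 12 largest falls. It had 31.3 and 43.4 in SeW, 149 and 97.5 in DSW1200, 97.7 and 69.9 in WR, and 189.7 and 119 in TW. The SeW arrays were the lowest of the 8, and the change was -2.03 (SE 0.31, adjusted p 0.0166), with -1.71 against DSW1200 (adjusted p 0.0296) and -1.17 against WR (adjusted p 0.115). Metallothionein genes have close copies, to which the probes could also bind. It was 1 of 19 tested genes of metallothioneins and of zinc or copper transport and the only one called. Of the 19, 13 had an unadjusted p under 0.05 by limma, against 1810 of all 9258 tested genes. Without overlap of the arrays, 6 were higher and 9 lower, against 22.1% and 29.1% of all tested genes. *Slc30a2*, a zinc exporter, had 54.5 and 50.6 in SeW and 137 and 110.0 in TW (-1.22, adjusted p 0.0577), lower on both of its probe sets, while *Slc39a1*, a zinc importer, had 486 and 452 in SeW and 330.2 and 271 in TW (0.65, adjusted p 0.0683).

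The metal-sensing factor MTF-1 acts on metallothionein genes through short metal response elements, and *Mt1* is shown with its upstream bases for this reason. The 250 bases before the RefSeq start of *Mt1* (GRCr8, chr19:10832976-10833225, minus strand) are given 5′ to 3′ in lower case, with matches to the element's core letters TGCACNC or TGCGCNC on either strand in capitals.
Mt1: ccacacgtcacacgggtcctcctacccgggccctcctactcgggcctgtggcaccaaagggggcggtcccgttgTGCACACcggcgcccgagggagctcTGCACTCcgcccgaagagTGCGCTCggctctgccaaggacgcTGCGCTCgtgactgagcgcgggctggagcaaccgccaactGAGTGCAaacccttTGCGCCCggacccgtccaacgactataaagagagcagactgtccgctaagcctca
There are 6 matches, the farthest beginning 176 bases and the nearest 55 bases before the start. At least 1 such match occurs in 20.6% of 33469 RefSeq promoters of this length, and 5 or more occur in 0.0747%. A match is a run of letters and not a measured binding site.

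Clock genes made up a group whose members moved in both directions. Transcription in most cells follows a daily cycle in which Bmal1, with Clock or its relative Npas2, activates the Rev-erb genes *Nr1d1* and *Nr1d2*, and the Rev-erb proteins repress *Bmal1*, *Npas2* and *Nfil3*. Of 12 tested clock genes, 1 rose and 2 fell, against 0.799% and 1.11% of all tested genes. *Nr1d2* had 180.2 and 248 in SeW, 30.3 and 55.8 in DSW1200, 55.4 and 86.4 in WR, and 38.5 and 42.1 in TW, a change of 2.39 (SE 0.32, adjusted p 0.0123). Its 3 probe sets were all higher, the dimmest of them under the filter. *Nr1d1* had 53 and 80.5 in SeW and 13.0 and 5.76 in TW, a difference of 2.92 with a large SE of 0.74 (adjusted p 0.0744). It passed against DSW1200 (adjusted p 0.0201), where its signals of 1.26 and 5.9 were under the filter and the size of the difference is not settled.

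*Bmal1* had 26.3 and 13.2 in SeW, 55.6 and 47.4 in DSW1200, 62.7 and 61.9 in WR, and 51.8 and 51.8 in TW, a change of -1.47 (SE 0.30, adjusted p 0.0441) that kept its call in 3 of 20 other settings and whose arrays overlapped as deposited. *Npas2* had 423 and 307 in SeW and 714 and 586 in TW (-0.84, adjusted p 0.0540) and lay at 0.11 as deposited. With *Nfil3*, given above, the 3 targets of repression were lower on both SeW arrays than on every array of the other groups, and both Rev-erb genes were higher. The labels give no time of day of tissue collection for any group, and its part in these values was not tested.

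Rev-erb proteins compete for the ROR element, an AGGTCA half-site with an AT-rich flank, and the *Bmal1* promoter is shown because its level ran opposite to theirs. Its 250 bases before the RefSeq start (GRCr8, chr1:176766078-176766327, plus strand) are given 5′ to 3′ with matches to TAGGTCA or TGGGTCA on either strand in capitals.
Bmal1: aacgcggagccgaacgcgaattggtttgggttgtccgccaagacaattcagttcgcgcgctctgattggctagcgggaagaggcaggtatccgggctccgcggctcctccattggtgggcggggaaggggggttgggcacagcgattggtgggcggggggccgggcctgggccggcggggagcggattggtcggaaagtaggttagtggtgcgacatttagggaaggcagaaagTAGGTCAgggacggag
The 1 match begins 16 bases before the start. Matches to either core occur in 5.62% of the 33469 promoters of this length. The same stretches of *Nfil3* and *Npas2*, the other targets named, held 0 matches.

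Genes of the mature enterocyte surface gave the largest number of rises in 1 list. Of 21 tested genes for brush border hydrolases and structure, 3 rose and 1 fell, against 0.799% and 1.11% of all tested genes. The list's median was 0.20. Relative to all genes that median was 0.24, but only 0.02 both as deposited and with median centring, where 11 of the 21 genes lay above the median gene, against 16 after quantile normalization. *Si*, sucrase-isomaltase, which splits sucrose and starch fragments, had 6297 and 5225 in SeW, 2829 and 3275 in DSW1200, 3113 and 2175 in WR, and 3159.6 and 2046 in TW, a change of 1.17 (SE 0.23, adjusted p 0.0379). *Enpep*, aminopeptidase A, had 2206 and 2686 in SeW and 1391 and 1329.7 in TW (0.84, adjusted p 0.0286), with its dim second probe set overlapping. *Mme*, neprilysin, had 2322 and 2713 in SeW and 1609 and 1352 in TW (0.77, adjusted p 0.0437), a call kept in 5 of 20 other settings. For all 3 hydrolases the SeW arrays were the 2 highest of the 8. The gene that fell was *Espn*, espin, which bundles the actin of microvilli, with 132 and 164 in SeW and 397 and 402 in TW (-1.44, adjusted p 0.0163). On the WR arrays it had 224 and 161, the second lying between the SeW arrays. The list of 12 enterocyte markers had a median of 0.22, which turned to -0.11 with median centring. Limma called 0 of them, with 2 at an unadjusted p under 0.05, against 1810 of all 9258 tested genes.

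Transporters of nutrients lay higher as a list. Of 20 tested, 16 were above 0 and 12 were higher without overlap of the arrays, against 22.1% of all tested genes, and the median was 0.45, or 0.49 above that of all genes. This distance was 0.48 both as deposited and with median centring, but with the beta-actin ratio as a covariate the list median shrank to 0.17. The members called were *Slc6a20a*, described above, and *Slc23a1*, the apical vitamin C transporter, with 109 and 109.5 in SeW and 44.8 and 57.8 in TW (1.10, adjusted p 0.0346). Its relative *Slc23a2* had 206 and 213 in SeW, 36.3 and 34.8 in DSW1200, 48.0 and 71.3 in WR, and 114 and 107 in TW. The difference from TW was 0.93 (adjusted p 0.0598), that from DSW1200 2.56 (adjusted p 0.00191) and that from WR 1.84 (adjusted p 0.0194), all on the brighter of 2 probe sets. *Slc3a2*, the shared heavy chain of amino acid exchangers (0.95, adjusted p 0.0598), and *Slc15a1*, the peptide transporter (0.97, adjusted p 0.0722), were higher on both SeW arrays without passing.

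Of 23 genes for ion and water transport, 18 were above 0 with a median of 0.30, and 1 rose. *Aqp3*, a channel for water and glycerol, had 500.2 and 328 in SeW, 196 and 124 in DSW1200, 204 and 220.0 in WR, and 104 and 110.1 in TW (1.92, SE 0.26, adjusted p 0.0123). TW was the lowest group, and the difference was smaller from DSW1200 (1.38, adjusted p 0.0318) and from WR (0.93, adjusted p 0.120). *Nr3c2*, the mineralocorticoid receptor, lay at 0.73 (adjusted p 0.0683) and *Car2*, a carbonic anhydrase, at 0.56 (adjusted p 0.0947) on the brighter of its 2 probe sets, the other overlapping. Among 30 genes of xenobiotic metabolism, 22 were above 0 with a median of 0.39, and *Abcb1a* was the 1 that rose. *Nat2*, an acetyltransferase of foreign amines, had 72.2 and 79.0 in SeW and 43.5 and 41.2 in TW (0.83, adjusted p 0.0736).

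Of 21 tested genes of cholesterol synthesis, 18 were below 0 and 16 were lower without overlap of the arrays, against 29.1% of all tested genes. The median was -0.48 but turned to 0.47 with the signals as deposited. Relative to the median of all genes it was -0.44, and -0.45 both as deposited and with median centring. With the beta-actin covariate the median was -1.67. The median was -0.32 against DSW1200 and -0.26 against WR. The summed signal of the 21 genes was 3924 to 4772 in SeW and 6821 to 7083 in TW. Only *Pmvk*, phosphomevalonate kinase, fell by the test, with 57.2 and 56.7 in SeW, 159 and 185 in DSW1200, 165 and 140.2 in WR, and 179.7 and 144 in TW (-1.50, SE 0.19, adjusted p 0.0123).

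Further steps of the same pathway were lower on both SeW arrays without passing. *Mvd*, the next enzyme after phosphomevalonate kinase, had 25.6 and 41.2 in SeW and 80.1 and 79.2 in TW (-1.29, adjusted p 0.0779). *Fdft1*, squalene synthase, had 106 and 107 in SeW and 244 and 245 in TW (-1.20, adjusted p 0.114), lower on both of its probe sets. *Cyp51*, lanosterol demethylase, had 653 and 721 in SeW and 1484 and 1505 in TW (-1.12, adjusted p 0.114), also lower on both. In DSW1200 this gene had 859 and 2057, a wide spread. *Sc5d*, a late enzyme, went the other way at 0.52 (adjusted p 0.138) on only the brightest of 3 probe sets. The other 2 overlapped, at -0.14 and -0.07.

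In fat absorption, 1 of 20 genes fell. *Slc27a4*, a fatty acid transport protein of enterocytes, had 1210.4 and 1109 in SeW and 1824 and 1925 in TW (-0.69, adjusted p 0.0359), and lay at 0.14 as deposited. *Plin2*, the coat protein of lipid droplets, had 1015 and 1164 in SeW and 1773 and 2183 in TW (-0.86, adjusted p 0.0716), lower on both of its probe sets, though the dimmer overlapped. The list's median was 0.13 and turned to -0.12 with median centring. *Pck1*, the key enzyme of gluconeogenesis, which glucocorticoids and fasting induce, rose in SeW with 1155 and 1222, against 134 and 269.7 in DSW1200, 1109 and 966 in WR, and 485 and 393 in TW (1.44, adjusted p 0.0364). It was therefore as high in WR, from which SeW differed by 0.20 (adjusted p 0.777).

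**Figure D4:**
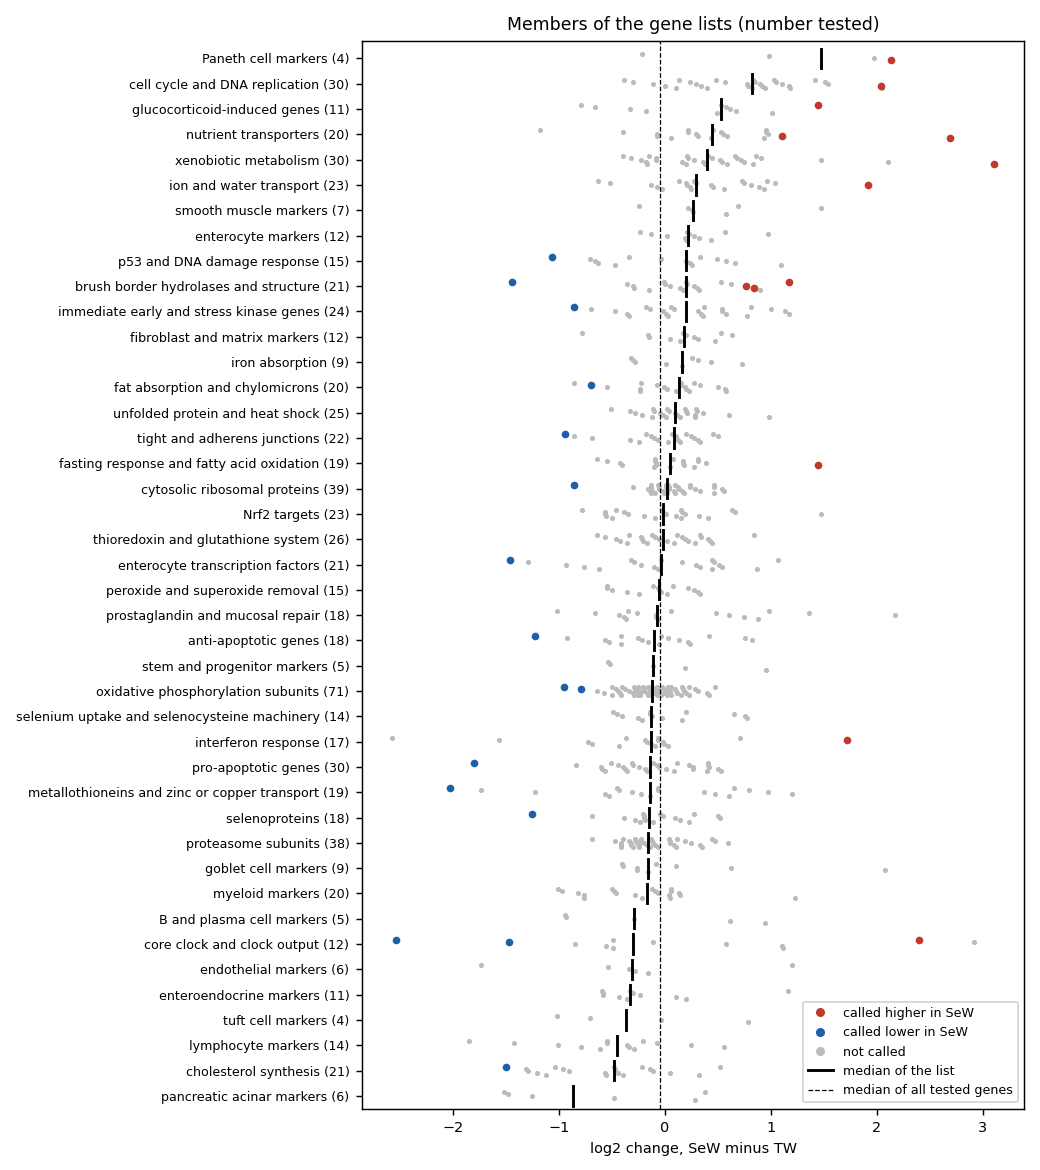
log2 change in SeW against TW of each tested member (points) of the gene lists with at least 4 tested genes, with the list's median as a bar and the median of all genes (-0.04) as a dashed line. Cell cycle genes (median 0.83, or 0.24 with an offset of 32 added before log2) and nutrient transporters (0.45) lie to the right. Cholesterol synthesis (-0.48) and lymphocyte markers (-0.45, or -0.21 with the offset) lie to the left. The farthest medians are those of 4 Paneth cell markers (1.48, or 0.79 with the offset) and 6 pancreatic acinar markers (-0.87, or -0.24). Glucocorticoid-induced genes lie at 0.53, or -0.10 with the beta-actin covariate. Few members were called in any list.

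Cell cycle and replication genes lay above 0 against TW, but not against every group. Of 30 tested, 27 were above 0, against 46.5% of all tested genes. Of the 30, 19 were higher without overlap of the arrays, against 22.1% of all tested genes. The median was 0.83, which shrank to 0.24 with the offset of 32. That median was 0.40 against DSW1200 and -0.02 against WR, so the WR arrays were at the level of SeW. *Nusap1*, a spindle protein, was the 1 member that rose, with 27.0 and 20 in SeW, 10.8 and 9.38 in DSW1200, 23.5 and 22.6 in WR, and 6.91 and 4.64 in TW (2.04, adjusted p 0.0364), and both of its probe sets were higher. Its TW signals averaged less than the filter, and the change was 0.55 with the offset of 32. *Gas2l3*, a cytoskeletal linker used in cell division and one of the 12 largest rises, had 36.4 and 44.1 in SeW and 12.8 and 5.56 in TW (2.25, adjusted p 0.0397). *Mki67*, the proliferation marker, had 56.2 and 40.2 in SeW, 27.8 and 27.8 in DSW1200, 39.6 and 57.6 in WR, and 28.5 and 22.9 in TW (0.89, adjusted p 0.121). *Ccna2*, cyclin A, lay at 2.04 (adjusted p 0.127) with TW signals under the filter, and *Stmn1*, a microtubule regulator, at 0.94 (adjusted p 0.147). Of the 5 probe sets of *Cdc20*, a mitotic activator, the brightest lay at 1.54 and the next at -0.81, so its direction is not settled.

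*Defa24*, an alpha-defensin, had 225 and 137 in SeW, 134 and 96.0 in DSW1200, 367 and 502 in WR, and 31.0 and 51.6 in TW. It rose against TW (2.13, adjusted p 0.0166), with 0.63 against DSW1200 (adjusted p 0.310) and -1.29 against WR (adjusted p 0.0949). *RatNP-3b*, another defensin, had 39.6 and 22.9 in SeW and 5.05 and 11.7 in TW (1.97, adjusted p 0.0535). Defensins are near-identical copies, and probes could bind several of them. Of 15 Paneth cell markers listed, only 4 passed the filter, with summed signals of 1275 to 1676 in SeW and 836 to 932 in TW. *Spink4*, a goblet cell product, had 466 and 182 in SeW and 54.3 and 87.6 in TW (2.08, adjusted p 0.0598), whereas the 9 goblet cell markers together had a median of -0.16, which became 0.01 without TW replicate 1 and 0.04 without SeW replicate 2.

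Of 14 lymphocyte markers, 12 were below 0 with a median of -0.45, which turned to 0.43 as deposited and was -0.21 with the offset of 32. By limma 0 were called against TW, with 5 at an unadjusted p under 0.05, against 1810 of all 9258 tested genes. Their summed signal was 402 to 409 in SeW and 516 to 609 in TW. *Gzmb*, granzyme B of cytotoxic lymphocytes, had 35.7 and 49.0 in SeW, 95.4 and 94.2 in DSW1200, 150.3 and 115 in WR, and 78.2 and 90.5 in TW. It missed the threshold against TW (-1.01, adjusted p 0.0535) and passed against DSW1200 (-1.18, adjusted p 0.0325) and WR (-1.65, adjusted p 0.0194), while its second probe set overlapped. *Cd69*, an activation marker, had 9.21 and 7.59 in SeW and 22.7 and 22.2 in TW (-1.42, adjusted p 0.080). The 20 myeloid markers had a median of -0.17, which became -0.60 without TW replicate 2 and -0.01 without TW replicate 1. The 12 fibroblast markers had one of 0.18, which became -0.40 without TW replicate 2. Pancreatic acinar markers had a median of -0.87, which became 0.53 without TW replicate 1.

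In apoptosis, 1 of 30 tested pro-apoptotic genes and 1 of 18 anti-apoptotic genes fell and 0 rose, with medians of -0.14 and -0.10. The first was *Bok*, described above. The second was *Bag1*, a co-chaperone that binds Bcl-2, with 106 and 110.0 in SeW and 197 and 322 in TW (-1.22, adjusted p 0.0401). *Mcl1*, an anti-apoptotic relative of Bcl-2, had 1677 and 1620.1 in SeW, 2192 and 1555 in DSW1200, 1898 and 1363 in WR, and 1445 and 604 in TW. Its difference of 0.82 from TW did not pass (adjusted p 0.231) and TW replicate 2 was the array apart, with both of its probe sets higher in SeW. *Bad*, a pro-apoptotic member, had 23.1 and 30.8 in SeW and 25.9 and 38.4 in TW, which overlap. *Bax* is only on probe sets shared with other genes and has no value here. *Bcl2* itself was too dim to test, with 1.00 and 2.46 in SeW and 1.00 and 1.00 in TW. Of the p53 and DNA damage list, *Sesn2*, a stress-responsive sestrin, fell, with 92.1 and 91.4 in SeW and 182 and 201 in TW (-1.06, adjusted p 0.0286, with overlap on a dimmer second probe set), whereas *Gadd45a*, a stress sensor, had 262 and 308 in SeW and 109 and 162 in TW (1.10, adjusted p 0.0566).

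Among the transcription factors of the enterocyte, 1 of 21 fell. *Pdx1*, the homeobox factor of the pancreas and duodenum, had 116 and 159 in SeW, 440.2 and 444 in DSW1200, 286 and 318 in WR, and 395 and 356 in TW, a change of -1.47 (SE 0.18, adjusted p 0.0123), with -1.70 against DSW1200 (adjusted p 0.00538) and -1.15 against WR (adjusted p 0.0383). *Ppard*, a fatty acid receptor, had 73.4 and 39.8 in SeW and 128 and 137 in TW (-1.29, adjusted p 0.0540). It was lower on both of its probe sets, but the second was dim, with a mean signal of 2.61 under the filter. *Jund*, a subunit of AP-1, fell on the brightest of its 3 probe sets (-0.85, adjusted p 0.0397) and lay at 0.11 as deposited. It belongs to another list, of 24 tested immediate early and stress kinase genes, in which it was the only one called. Of these 24, 16 were above 0, against 46.5% of all tested genes. Their median was 0.20, which became 0.07 with the offset of 32 and -0.36 with the beta-actin covariate.

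Of 71 subunits of oxidative phosphorylation, 0 rose and 2 fell, with a median of -0.12, and 31 were lower without overlap of the arrays, against 29.1% of all tested genes. *Cox5a*, a subunit of cytochrome c oxidase, had 106 and 115 in SeW and 229 and 199 in TW (-0.95, adjusted p 0.0293), and *Atp5f1e*, a subunit of ATP synthase, had 2063 and 2078 in SeW and 3186 and 4032 in TW (-0.79, adjusted p 0.0352). Of 39 cytosolic ribosomal protein genes only *Rpsa* was called, with 1032 and 965 in SeW and 1801 and 1801 in TW (-0.85, adjusted p 0.0163) on the brightest of 3 probe sets, the others lying at -0.23 and -0.28. Ribosomal protein genes have processed copies in the genome, to which probes could also bind. Of 38 proteasome subunits limma called 0, while 6 had an unadjusted p under 0.05, against 1810 of all 9258 tested genes. Their median was -0.16, with 17 lower without overlap, against 29.1% of all tested genes. *Cldn12*, a tight junction claudin, had 381 and 258 in SeW and 543 and 666 in TW (-0.94, adjusted p 0.0475), a call kept in 4 of 20 other settings. *Cox5a* and *Cldn12* lay at 0.02 and 0.01 as deposited. In the interferon list of 17 genes, 14 were below 0, against 53.5% of all tested genes, with a median of -0.13. Of the 17, 5 were lower without overlap, against 29.1% of all tested genes. The 1 member called was *Rig1*, the cytosolic RNA sensor RIG-I, which rose with 60.2 and 64.8 in SeW and 27.1 and 13.3 in TW (1.72, adjusted p 0.0352). *Rsad2*, viperin, had 90.8 and 82.8 in SeW and 227 and 289 in TW (-1.56, adjusted p 0.108).

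The same SeW arrays were set against the other groups, so that values could be read without the TW arrays. Against DSW1200, 252 genes were called (2.72%), and against WR, 114 genes (1.23%). These comparisons share the SeW arrays with the one against TW and are not independent of it. Among the genes called against TW, the 5 with the smallest p against both were *Ap2b1* and *Nfil3*, given above, and *Slc13a2*, *Fam78a* and *Rnpepl1*. *Slc13a2*, a sodium-coupled carrier of citrate and other dicarboxylates, had 621 and 589.9 in SeW, 274 and 255 in DSW1200, 270.0 and 258 in WR, and 316 and 296 in TW. Its change was 0.98 against TW (SE 0.15, adjusted p 0.0166) and 1.20 against both DSW1200 (adjusted p 0.00736) and WR (adjusted p 0.0194).

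*Rnpepl1*, a member of the aminopeptidase B family, had 184 and 172 in SeW, 426 and 390.4 in DSW1200, 381 and 399 in WR, and 454 and 485 in TW. It changed by -1.40 against TW (adjusted p 0.00974), -1.19 against DSW1200 (adjusted p 0.00736) and -1.13 against WR (adjusted p 0.0194). *Fam78a* had 16.5 and 19.9 in SeW, 81.2 and 59.1 in DSW1200, 64.3 and 72.8 in WR, and 36.0 and 46.1 in TW. Its change of -1.17 against TW (adjusted p 0.0486) overlapped as deposited and kept its call in 4 of 20 other settings. The TW arrays lay between SeW and the rest.

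Genes with a second probe set above the filter gave a check within the arrays. Of the 74 rises, 24 had one, and it changed in the same direction for 19, with a median of 0.64. Of the 103 falls, 31 had one, and it changed in the same direction for 19, with a median of -0.21. Over all tested genes the direction was shared by 1196 of 2097, or 57.0%. These counts are descriptions, since probe sets of 1 gene share the same arrays.

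**Figure D5:**
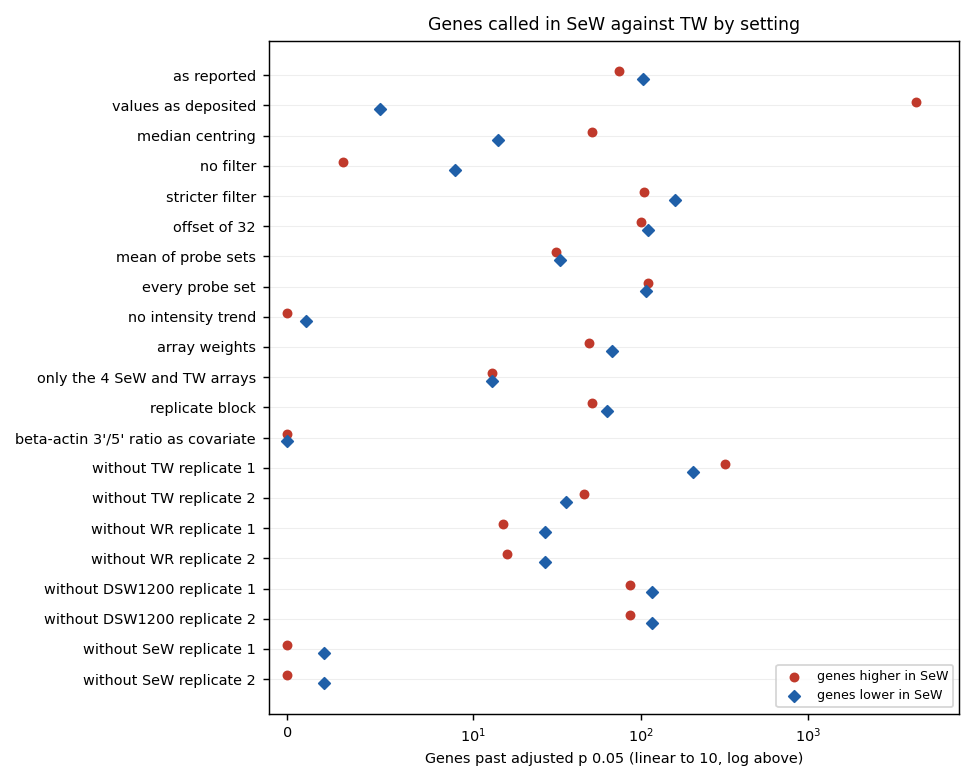
Number of genes called higher (circles) and lower (diamonds) in SeW against TW under each setting, on an axis that is linear to 10 and logarithmic above. The reported 74 and 103 stand beside 0 and 2 without either SeW array, 317 and 204 without TW replicate 1, and the signals as deposited gave 4390 higher and 5 lower.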

How the data were processed

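Epithelial RNA was hybridised to Affymetrix Rat Genome 230 2.0 arrays, 2 per group. The deposited values are array signals (intensity on a linear scale), which the authors made with MAS5 by the submitters' processing notes. These were quantile normalized over the 8 arrays, set to at least 1 and taken to log2. A gene was read from its brightest probe set with a single symbol and tested if its mean exceeded the median of all probe sets (signal 6.69), which 9258 of 14217 genes did. One limma model (version 3.58.1, R 4.3.3) with group as its only term and an intensity trend left 4 residual degrees of freedom. The number of arrays limits the precision, and an exact permutation test of 2 against 2 cannot go below p 0.333. Genes were named as the 12 largest called rises and falls, members of 44 gene lists by smallest p or call, a fixed set of selenoprotein, apoptosis and antioxidant genes, and the 5 smallest p against both other groups. Members and lists were chosen with earlier results of these data known. The alternatives concerned scaling, filter, offset, probe set, variance model, arrays, replicate block and RNA quality. The fit was tested on simulated data. Upstream sequences are from RefSeq.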

Additional observations from a re-analysis of the deposited data

How the results depend on the processing

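With only 4 residual degrees of freedom, the counts moved with most choices. The genes higher and lower in SeW against TW numbered 4390 and 5 as deposited, 51 and 14 with median centring, 3 and 9 without a filter, 105 and 160 with the stricter one, 31 and 33 with the mean of probe sets, 0 and 1 without an intensity trend, 49 and 67 with array weights, 13 and 13 with only the 4 SeW and TW arrays, and 0 and 0 with the beta-actin ratio as covariate. A 2-fold criterion in place of the test gave 360 and 270, or 294 and 242 without overlap of the arrays. Against DSW1200 and WR, the calls numbered 3740 and 973 as deposited, 78 and 37 with median centring, 19 and 1 without a filter, 141 and 18 with the mean of probe sets, 1 and 1 without an intensity trend, 453 and 484 with array weights, and 0 and 0 with the covariate. Leaving out 1 array gave 0 to 317 genes higher and 2 to 204 lower against TW, 3 to 436 calls against DSW1200 and 1 to 212 against WR. The counts against TW were 317 and 204 without TW replicate 1, 46 and 36 without TW replicate 2, 15 and 27 without WR replicate 1, 16 and 27 without WR replicate 2, and 0 and 2 without SeW replicate 1 or 2. A single array left in a group was assumed to vary like the others. The causes were not tested.

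Replicate numbers did not pair the samples, since the correlations of same-numbered deviations ran from -0.06 to 0.04. With the replicate block, 51 genes were higher and 63 lower against TW, 116 were called against DSW1200 and 19 against WR.

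Signs turned for the following genes. As deposited, *Gpx1* lay at 0.77, *Gpx3* at 0.97, *Gpx4* at 0.18, *Txnrd1* at 0.76, *Txnrd2* at 0.73, *Msrb1* at 0.58, *Bad* at 0.74, *Sod1* at 0.37, *Cat* at 0.90, *Npas2* and *Jund* at 0.11, *Slc27a4* at 0.14, *Cox5a* at 0.017 and *Cldn12* at 0.012. With median centring, *Gpx3* lay at 0.11 and *Cat* at 0.052, and with the mean of probe sets *Gpx4* lay at 0.043. With the beta-actin covariate, *Gpx1* lay at 0.047, *Gpx3* at 0.22, *Txnrd2* at 0.060, *Txnip* at -0.53, *Gsr* at -1.99 and *Cat* at 0.57. With 1 array left out, *Gpx1* ranged from -0.45 without TW replicate 2 to 0.044 without TW replicate 1, and *Bad* from -0.52 without TW replicate 1 to 0.042 without TW replicate 2. *Txnip* ranged from -0.0304 without SeW replicate 2 to 0.72 without SeW replicate 1, *Gsr* from -0.21 to 0.39 over the same arrays with -0.025 without TW replicate 1, and *Cat* from -0.41 without TW replicate 2 to 0.27 without TW replicate 1, with 0.11 without SeW replicate 2. *Gpx3* ranged from -0.21 without SeW replicate 1 to 0.12 without SeW replicate 2.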
